A study of Mus musculus with 30 samples.

Results

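Spleen CD8 T cells and spleen CD4 T cells of the same 3 Prmt5 knockout mice were compared by bulk RNA sequencing. The libraries are the knockout columns of the spleen count table, a CD8 and a CD4 library for each of mice 65, 68 and 72, paired by the animal number in the column name. They are 6 of the 30 samples of the series, which holds sorted thymus and spleen T cells. The knockout mice (CKO) are C57BL/6 with both Prmt5 alleles floxed and a Cre transgene under the Cd4 promoter (CD4-Cre+ PRMT5fl/fl). The comparison group is the 6 wild-type (WT) spleen libraries, CD8 and CD4 cells of C57BL/6 mice 67, 70 and 71. Age and sex are not given in the labels. No group is labelled as carrying CD4-Cre alone, so Cre and the loss of Prmt5 cannot be told apart where CKO is set against WT. CD8 and CD4 cells of a CKO mouse share this genotype. Whether Cre activity and the loss of Prmt5 were equal in both was not tested.

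CD4 and CD8 T cells arise in the thymus from a common precursor that carries both coreceptors. CD4 binds MHC class II and marks helper and regulatory cells, which act through CD40 ligand, cytokines and the factor Foxp3. CD8 binds MHC class I and marks cytotoxic cells, which kill with perforin and granzymes released from granules. The Cd4 promoter is active in the common precursor, so the Cre acts in both lineages. Prmt5 is an arginine methyltransferase that, with its partner Wdr77, marks histones and the Sm proteins of the splicing machinery symmetrically.

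RUNX factors and T-box factors (Tbx21, Eomes) are known regulators of cytotoxic genes. Promoter sequence is shown for 4 cytotoxic genes that were higher in CKO CD8 cells, because granule genes are among the CD8-side genes described below and these windows, unlike those of Cd8a and Eomes, hold at least 1 of the cores searched. Each run is the 250 bases before a gene's start, 5′ to 3′ on the gene's strand, from RefSeq on GRCm38.p6, with the RUNX core TGTGGT and the T-box core AGGTGTGA in capitals, searched on both strands, so that a match on the other strand reads as the reverse complement. The windows are chr14:56262335-56262584 (minus strand) for Gzmb, chr13:113100982-113101231 (minus) for Gzma, chr10:61297586-61297835 (plus) for Prf1 and chr7:43436888-43437137 (plus) for Nkg7.
Gzmb: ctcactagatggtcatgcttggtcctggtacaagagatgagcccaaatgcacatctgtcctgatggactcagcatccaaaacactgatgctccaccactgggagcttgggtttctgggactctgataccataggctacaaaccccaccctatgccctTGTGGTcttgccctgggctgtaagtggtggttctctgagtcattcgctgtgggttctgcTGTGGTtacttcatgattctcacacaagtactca
Gzma: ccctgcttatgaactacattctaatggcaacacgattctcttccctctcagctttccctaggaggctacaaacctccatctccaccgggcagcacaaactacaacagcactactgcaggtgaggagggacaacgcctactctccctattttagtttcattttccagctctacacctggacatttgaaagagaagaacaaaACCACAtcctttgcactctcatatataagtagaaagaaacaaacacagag
Prf1: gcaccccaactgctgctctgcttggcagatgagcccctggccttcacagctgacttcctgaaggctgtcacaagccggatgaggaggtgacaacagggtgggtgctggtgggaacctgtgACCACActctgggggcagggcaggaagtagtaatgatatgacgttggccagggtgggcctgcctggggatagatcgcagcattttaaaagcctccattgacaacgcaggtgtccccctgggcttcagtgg
Nkg7: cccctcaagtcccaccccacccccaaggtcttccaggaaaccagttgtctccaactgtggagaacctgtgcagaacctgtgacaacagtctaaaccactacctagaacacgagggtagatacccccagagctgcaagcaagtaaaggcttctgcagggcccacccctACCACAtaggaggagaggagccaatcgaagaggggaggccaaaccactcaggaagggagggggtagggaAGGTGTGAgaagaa
Gzmb held 2 RUNX cores, Gzma and Prf1 held 1 each, and Nkg7 held 1 RUNX core and 1 T-box core, with no overlap between them. A window of Zbtb7b, which was lower in CKO CD8 cells (below), also held 1 RUNX core, and its other window held none. The RUNX core was in 14.05% of all 32851 RefSeq promoter windows of this length, in 12.9% of those of genes higher in CKO CD8 cells, in 11.2% of those of genes lower there and in 11.5% of those of genes that did not pass. The T-box core was in 1.12%, 0.939%, 0.842% and 0.719% of the same 4 sets. The windows of called genes therefore held either core at about the share of promoters at large. Of the 128 genes that the naming rule picked, 90 had a window in the RefSeq table. Ctsw, Ccl5, Cd4 and Cd40lg are named without one.

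Total counts were 24729146 to 27137018 in the 3 CKO CD4 libraries and 25426449 to 26305321 in the 3 CKO CD8 libraries. The 6 WT libraries had 26007799 to 27192847. A gene's level is given below in CPM, counts scaled to a common library size, always for mice 65, 68 and 72 in this order (67, 70 and 71 for WT), and 10 counts in the shallowest CKO library were worth 0.404 CPM. CPM is not divided by gene length, so levels are compared between libraries and not between genes. A log2 difference is CD8 over CD4 within a mouse, ± its standard error (SE), from edgeR's quasi-likelihood test with the mouse as a block. A gene was called at a Benjamini-Hochberg adjusted p under 0.05 over all genes tested.

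Prmt5 was lower in CKO than in WT libraries of either population, and within the CKO mice its remaining mRNA was higher in CD8 cells. Its level was 23.9, 18.8 and 24 CPM in CKO CD4 and 35.6, 29.3 and 42 CPM in CKO CD8 cells, against 43.2, 44.2 and 43.5 CPM in WT CD4 and 68, 61.7 and 65.6 CPM in WT CD8 cells. The CKO libraries lay below the WT libraries of the same population with no overlap, and the CD8 libraries lay above the CD4 libraries in both genotypes. In CKO mice the difference was log2 0.67 ± 0.083 (adjusted p = 1.92e-05), and it differed from that in WT by 0.10 ± 0.10 (adjusted p = 0.68). The floxed part of the gene is not given in the sources used here, so counts over the whole gene do not show what share of the mRNA was intact.

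The sort was visible in the coreceptor genes. Cd4 was 954, 923 and 891 CPM in CKO CD4 cells and 3.15, 2.61 and 3.07 CPM in CKO CD8 cells, log2 -8.29 ± 0.07 (adjusted p = 4.47e-18). Cd8a was 4.66, 3.41 and 5.37 CPM in CKO CD4 cells and 1481, 1209.6 and 1177 CPM in CKO CD8 cells, log2 8.17 ± 0.094 (adjusted p = 1.61e-16). Cd8b1, the second chain of the CD8 coreceptor, was 15.3, 16.7 and 15.9 CPM and 803, 635 and 699 CPM, log2 5.47 ± 0.075. Each population therefore held its own coreceptor at levels that no library of the other approached. The pan-T genes Cd3e (439, 433 and 435 CPM in CD4 cells, 539, 495 and 469.6 CPM in CD8 cells) and Cd3d (248, 232 and 258 CPM and 294, 265 and 253 CPM) were high in all 6 libraries. Cd2, a pan-T gene named after its values were seen, was low, at 5.7, 5.35 and 6.46 CPM and 5.02, 4.6 and 5.99 CPM. Of 9 measured pan-T genes, 1 was higher in CD8 cells, 3 were lower and 5 did not pass.

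Of 14253 genes tested, 5055 (35.5%) differed between CD8 and CD4 cells of the CKO mice, 2419 (17%) higher in CD8 cells and 2636 (18.5%) lower. Every list count of the CKO contrast below is to be read against these shares of 17% and 18.5%. By size, 514 of the higher and 843 of the lower genes differed by more than 1 on the log2 scale, and 45 and 68 by more than 4. CD8 libraries lay above all CD4 libraries for 2495 genes (17.5%) and below all for 2639 (18.5%). The median log2 difference over all genes tested was -0.0020. At an unadjusted p under 0.05, 6206 genes differed.

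**Figure D1:**
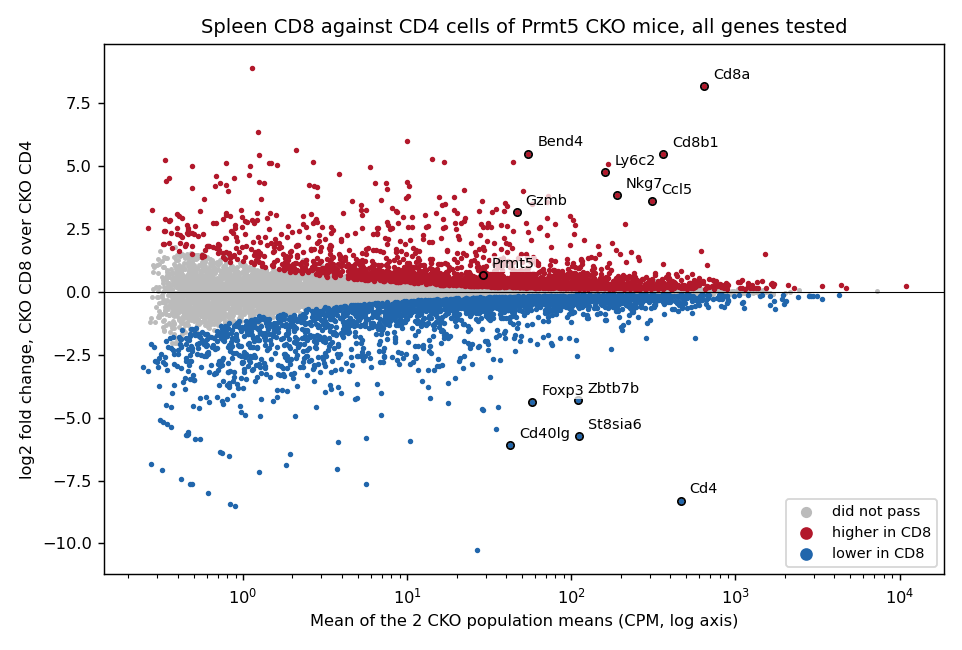
Log2 difference of CKO CD8 over CKO CD4 cells (vertical axis) against mean level in CPM (horizontal, log axis) for the 14253 genes tested; red, higher in CD8 (2419); blue, lower in CD8 (2636); grey, did not pass. The coreceptors Cd8a (8.17) and Cd4 (-8.29) lie at the edges, and Prmt5 lies near 0 at 0.67.

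The largest differences of genes at 5 CPM or more included, beside the coreceptors, transporters, enzymes, surface receptors and an opposite pair of Ly6 genes. On the CD8 side, after Cd8a and Cd8b1, stood Dmrta1 (log2 6.01 ± 0.20), a DM-domain transcription factor gene, and Bend4 (log2 5.50 ± 0.11), a BEN-domain gene that went from 2.11, 1.9 and 3.07 CPM in CD4 cells to 91.4, 114 and 115 CPM in CD8 cells. Haao (log2 5.27 ± 0.20), an enzyme of tryptophan breakdown, Slc6a19 (log2 5.14 ± 0.13), a neutral amino acid transporter, Adgrg5 (log2 5.08 ± 0.11), an adhesion G protein-coupled receptor, Wdr95 (log2 4.98 ± 0.25) and the killer receptor gene Klra3 (log2 5.15 ± 0.35) followed. Each was above the CD4 library in all 3 mice.

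On the CD4 side, after Cd4, stood Chdh, the choline dehydrogenase gene, with 7.95, 6.34 and 7.83 CPM in CD4 cells and only 4 counts over the 3 CD8 libraries (log2 -7.04 ± 0.42). Cd40lg, the ligand with which helper cells license B cells, was 86.9, 76.9 and 86.1 CPM in CD4 cells and 1.35, 0.506 and 1.88 CPM in CD8 cells (log2 -6.08 ± 0.16, adjusted p = 1.32e-12). St8sia6, a sialyltransferase gene, was 219, 195 and 240.3 CPM and 4.99, 3.35 and 3.87 CPM (log2 -5.74 ± 0.085). These 3 genes were near 0 in CD8 cells relative to their level in CD4 cells of the same mouse. The prostacyclin receptor Ptgir (log2 -5.96 ± 0.33), the IL-33 receptor Il1rl1 (log2 -5.92 ± 0.25), the chemokine receptor Ccr6 (log2 -5.81 ± 0.30), the enkephalin precursor Penk (log2 -4.89 ± 0.27) and the unconventional myosin Myo10 (log2 -4.71 ± 0.12) completed the side.

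Ly6c1 and Ly6c2 are near neighbours and close copies on chromosome 15 of GRCm38, at 75044018 to 75048830 and 75108158 to 75111970. Ly6c1 was 54, 70.5 and 80.8 CPM in CKO CD4 and 1.42, 1.48 and 1.76 CPM in CKO CD8 cells (log2 -5.45 ± 0.11), while Ly6c2 was 6.09, 10.6 and 19 CPM and 259, 263 and 406 CPM (log2 4.75 ± 0.12). The pair thus had opposite directions with no overlap of libraries in either. Counting could split reads between such copies, and the strand setting of the counting is not given, so levels of single members are uncertain here and for the Klra, Klrc and granzyme genes.

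**Figure D2:**
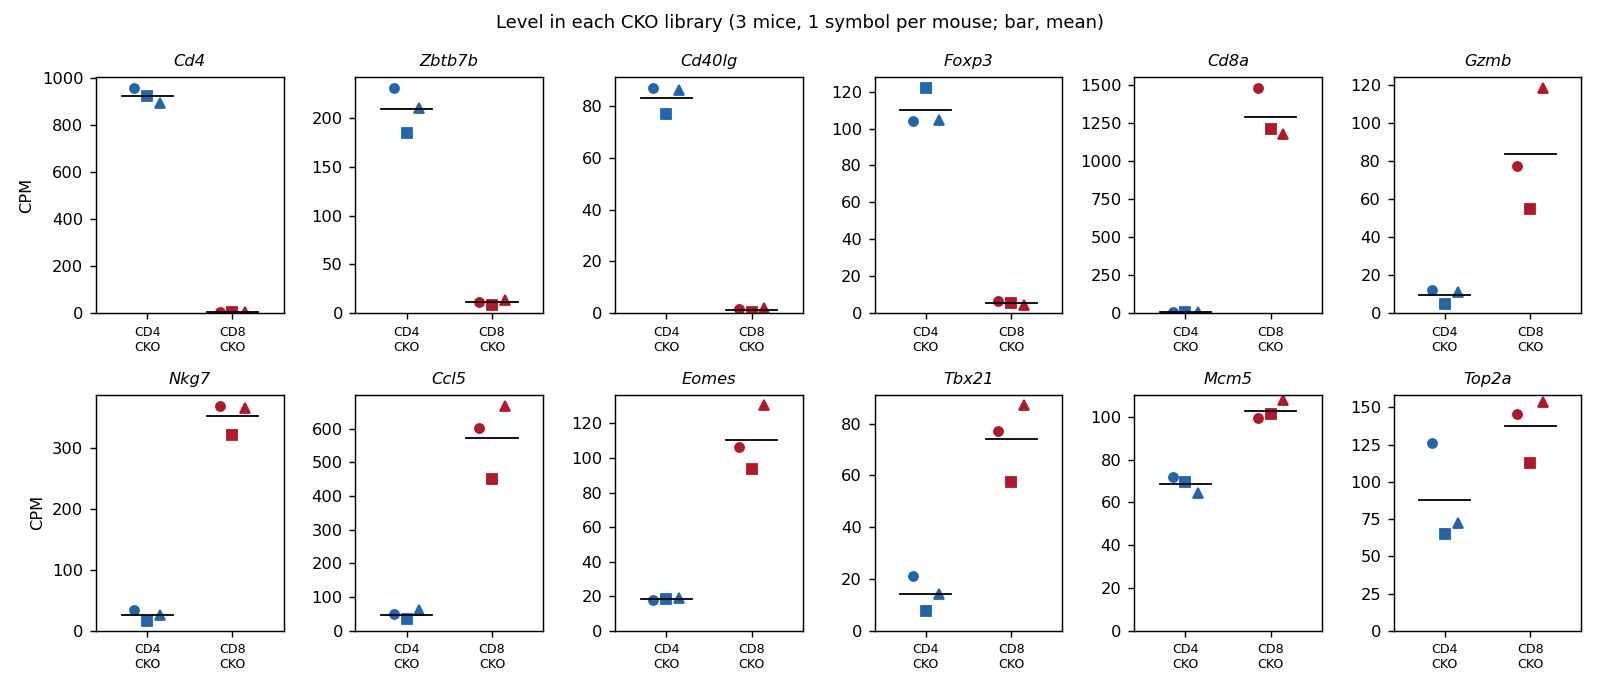
Level in CPM (vertical axes, each from 0) of 12 genes in the 3 CD4 (blue) and 3 CD8 (red) CKO libraries, 1 symbol per mouse, with the mean as a bar. Populations do not overlap in 11 panels; for Top2a the CD4 library of mouse 65 (126 CPM) lies above the CD8 library of mouse 68 (112 CPM).

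Transcription factors of the lineage choice followed the coreceptors. Zbtb7b (ThPOK), which commits cells to the CD4 lineage, was 231, 185 and 211 CPM in CKO CD4 cells and 11.3, 7.67 and 13.4 CPM in CKO CD8 cells (log2 -4.29 ± 0.089, adjusted p = 9.67e-14). Runx1 was 137, 143 and 137 CPM and 63.5, 58.4 and 60.6 CPM (log2 -1.20 ± 0.053). Runx3, the CD8-lineage factor, and Gata3, which acts on the CD4 side, were chosen after their values were seen. Runx3 was 4.66, 3.13 and 3.76 CPM in CD4 and 6.26, 7.17 and 19.4 CPM in CD8 cells (log2 1.34 ± 0.27, adjusted p = 0.00132), with mouse 72 well above the other CD8 libraries, and Gata3 differed by log2 -0.88 ± 0.054. Of the 17 measured coreceptor and lineage genes, 4 were higher in CD8 cells, 9 lower and 4 did not pass. The count includes Cd4, Cd8a and Cd8b1, the coreceptor genes that the sort separates.

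Cytotoxic granule genes were mostly on the CD8 side. In the granule list 19 genes were measured: 12 rose in CKO CD8 cells over CD4 cells, 3 fell and 4 missed the threshold, with a median log2 difference of 1.45. Gzmb, the granzyme that cleaves caspases in target cells, was 12, 4.64 and 11.1 CPM in CD4 and 77.6, 54.7 and 119 CPM in CD8 cells, log2 3.18 ± 0.13 (adjusted p = 1.12e-10). The lowest CD8 library lay above the highest CD4 library, and mouse 68 was lowest in both populations. Gzma was 8.13, 8.32 and 16.3 CPM and 122, 74.7 and 197 CPM (log2 3.57 ± 0.10), and Gzmk was 2.97, 0.911 and 2.54 CPM and 33.9, 16.4 and 37.3 CPM (log2 3.78 ± 0.14). The granzyme levels of CD8 cells varied by over 2-fold among the 3 mice, with mouse 68 lowest for these 3 genes.

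Nkg7, a granule membrane protein needed for degranulation, was 33.3, 16.2 and 25.5 CPM in CD4 cells and 369, 321 and 366 CPM in CD8 cells (log2 3.84 ± 0.11). Ctsw, a cathepsin of cytotoxic cells, was 60.7, 53.4 and 56.2 CPM and 393, 353 and 362 CPM (log2 2.70 ± 0.048), and had the smallest p of the list (adjusted p = 2.27e-14). Gzmm differed by log2 3.76 ± 0.13. Prf1, the pore-forming perforin (chosen after its values were seen), was 22.1, 18.5 and 19.1 CPM and 73.3, 49.6 and 78.6 CPM (log2 1.73 ± 0.10, adjusted p = 3.45e-09). The members lower in CD8 cells, named after their values were seen, were Lamp1 (log2 -0.16 ± 0.047), a lysosomal membrane protein, and the release factors Rab27a (log2 -0.26 ± 0.051) and Stx11 (log2 -0.59 ± 0.11), all smaller in size than the rise of the 3 granzymes given first, and 1 member in place of 3 was lower without the block. Of the 24 listed granule genes, the other 5, all granzymes, fell below the count filter.

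Chemokines and cytokines of effector cells showed the same side. Of 10 measured, 7 were higher in CKO CD8 cells, 1 was lower and 2 did not pass, with a median of 0.86. Ccl5, a chemokine stored by memory CD8 cells, was 48.7, 33.4 and 61.5 CPM in CD4 and 600.1, 451 and 668 CPM in CD8 cells (log2 3.60 ± 0.061, adjusted p = 1.52e-14). Ccl4 differed by log2 2.59 ± 0.16 and Xcl1, which attracts cross-presenting dendritic cells, by log2 2.53 ± 0.23. Ifng, the interferon gamma gene, was 17.8, 9.59 and 10.9 CPM and 36.1, 38.4 and 50.3 CPM (log2 1.71 ± 0.17, adjusted p = 1.56e-06). Osm, oncostatin M, was the 1 member lower in CD8 cells (log2 -1.25 ± 0.14). Tnf, Lta and Ltb, which T cells are known to use, are listed at 0 in all 12 spleen libraries and were given no result. Il2 and Csf2 fell below the count filter. Tnf, Lta and Ltb lie between 35049966 and 35238767 on chromosome 17 (GRCm38), where all 22 protein-coding genes of the table, the widely used Bag6, Csnk2b and Prrc2a among them, are listed at 0.

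Killer cell lectin-like receptors, shared by NK cells and effector CD8 cells, were higher on the CD8 side. Of 28 measured killer receptor genes, 18 were higher in CKO CD8 cells, 3 lower and 7 did not pass, with a median of 2.27. Over all genes 17% were higher and 18.5% lower. Klrc1 (NKG2A) was 4.37, 3.33 and 5.21 CPM in CD4 and 50.5, 35.4 and 73.5 CPM in CD8 cells (log2 3.60 ± 0.10), its partner Klrd1 (CD94) 21.6, 15.8 and 27.1 CPM and 147, 119 and 144 CPM (log2 2.68 ± 0.082), and Klrk1 (NKG2D) 12.9, 8.68 and 20.8 CPM and 86.5, 69.4 and 120.03 CPM (log2 2.73 ± 0.086). Cd160 (log2 3.15 ± 0.12) and Crtam (log2 2.59 ± 0.10), other receptors of cytotoxic cells, stood on the same side. In the stretch of chromosome 6 from 122270596 to 131247362 that holds the Klr family, 15 of 23 Klr genes tested were higher in CD8 cells, 1 lower and 7 did not pass.

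The exception in that stretch was Klrg1, a marker of terminal effector cells (chosen after its values were seen, since the series title names it). Klrg1 was 17, 23.7 and 28.5 CPM in CKO CD4 cells and 16.9, 12.1 and 20.5 CPM in CKO CD8 cells, log2 -0.49 ± 0.14 (adjusted p = 0.013), and the populations overlapped. In WT mice it was 7.18, 8.04 and 5.8 CPM in CD4 and 3.47, 6.69 and 1.55 CPM in CD8 cells, and the difference between the genotypes' contrasts did not pass (0.47 ± 0.31, adjusted p = 0.457). Klrg1 was therefore above the WT levels in both CKO populations, and its mean was higher in CD4 than in CD8 libraries of either genotype.

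NK markers went both ways. The summed level of the 12-gene NK list was 195 to 204 CPM in CKO CD4 libraries and 360.3 to 516 CPM in CKO CD8 libraries, and 5 of its 12 genes rose from CD4 to CD8 libraries, 2 fell and 5 missed the threshold (3 rose without the block). Gzma (above) and Eomes (18.1, 18.3 and 19 CPM and 107, 93.4 and 131 CPM), which CD8 cells also express, are members of it and hold most of the rise of the sum in each mouse. Ncr1 (NKp46, chosen after its values were seen), which defines NK cells, was 2.19, 2.34 and 2.34 CPM in CD4 and 1.54, 1.6 and 1.84 CPM in CD8 libraries (log2 -0.47 ± 0.28, adjusted p = 0.214), and the adaptors Tyrobp (log2 -1.18 ± 0.22) and Fcer1g (log2 -1.18 ± 0.21) were lower in CD8 libraries. Most myeloid markers (below) were lower there too, and which cells gave the reads of these adaptors was not tested. Klrb1c (NK1.1) was higher in CD8 libraries (4.66, 3.84 and 5.33 CPM and 12.9, 7.75 and 12.2 CPM, log2 1.23 ± 0.15). No member was at 0 in a whole group.

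Transcription factors of effector cells were mostly CD8-side, with 11 of 17 higher, 4 lower and 2 not passing (median 0.48; 7 higher and 2 lower without the block). Eomes, a T-box factor of memory and effector CD8 cells, was 18.1, 18.3 and 19 CPM in CD4 cells and 107, 93.4 and 131 CPM in CD8 cells (log2 2.56 ± 0.077, adjusted p = 4.84e-12). Tbx21 (T-bet) was 21.3, 7.57 and 14.2 CPM and 77.2, 57.4 and 87.1 CPM (log2 2.41 ± 0.14), and Zeb2, which acts with T-bet in terminal effectors, 9.46, 6.38 and 12.6 CPM and 42.6, 30.7 and 64.2 CPM (log2 2.26 ± 0.089). Ikzf3 (Aiolos) differed by log2 0.81 ± 0.044. Maf, a factor of follicular helper, Th17 and regulatory cells, was on the CD4 side with 63.4, 43 and 49.8 CPM and 11.7, 8.29 and 11.5 CPM (log2 -2.31 ± 0.09).

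**Figure D3:**
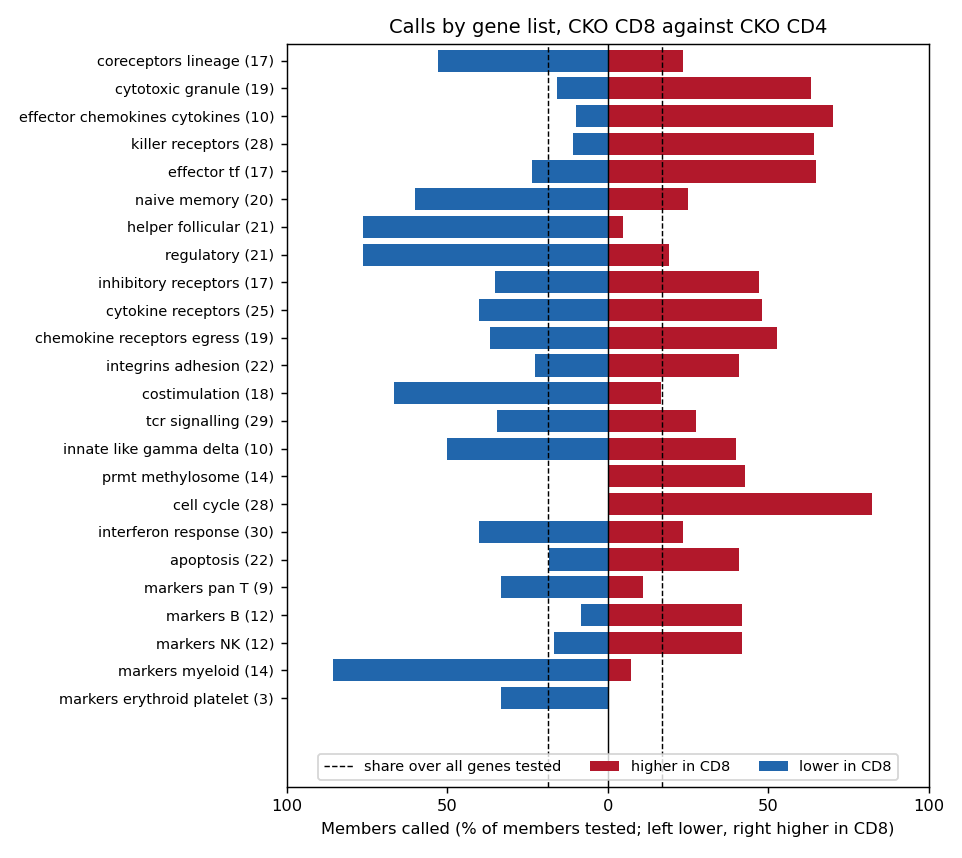
Share of measured members (horizontal axis, percent; number measured in parentheses) called lower (blue, left) or higher (red, right) in CKO CD8 than in CKO CD4 cells for each of 24 gene lists. Dashed lines mark the shares over all genes tested, 18.5% lower and 17% higher. The myeloid marker list (12 of 14 lower) extends furthest to the left, and the helper and regulatory lists lie on the same side. The granule, chemokine, killer receptor and cell cycle lists extend to the right.

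Helper and regulatory genes were mostly on the CD4 side. Of 21 measured helper and follicular genes, 16 were lower in CKO CD8 cells, 1 was higher and 4 did not pass (median -1.82), and of 21 measured regulatory genes, 16 were lower, 4 higher and 1 did not pass (median -0.92). Foxp3, the factor that defines regulatory T cells, was 104, 122 and 104 CPM in CD4 cells and 6.49, 5.14 and 4.11 CPM in CD8 cells (log2 -4.39 ± 0.10, adjusted p = 4.87e-13). Il2ra (CD25) was 66.1, 57.4 and 50.9 CPM and 6.34, 5.65 and 4.91 CPM (log2 -3.37 ± 0.088), and Lrrc32 (GARP), which holds latent TGF-beta on regulatory cells, 31.4, 42.2 and 28.2 CPM and 1.46, 2.65 and 0.759 CPM (log2 -4.42 ± 0.17). The labels name no separate sort of regulatory cells, so these levels are of all CD4 cells together. In bulk samples, fewer cells of a type and less RNA per cell cannot be told apart.

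Among helper genes, the folate receptor family member Izumo1r (FR4) was 77.4, 85.5 and 67.8 CPM in CKO CD4 and 23.3, 22.7 and 14.7 CPM in CKO CD8 cells (log2 -1.95 ± 0.085), the costimulatory receptor Tnfrsf4 (OX40) 35.2, 39.7 and 37.7 CPM and 9.75, 8.88 and 8.86 CPM (log2 -2.04 ± 0.10), and the chemokine receptor Ccr4 29.3, 16.5 and 22 CPM and 2.55, 1.64 and 1.64 CPM (log2 -3.54 ± 0.14). Il6ra, a chain of the IL-6 receptor, differed by log2 -1.20 ± 0.048. The 1 helper gene on the CD8 side, named after its values were seen, was Cxcr5 (10.03, 6.34 and 7.51 CPM and 16, 9.62 and 8.42 CPM, log2 0.48 ± 0.14, adjusted p = 0.0161), whose populations overlapped; no helper gene was higher without the block, without mouse 65 or without mouse 68. The 4 regulatory-list genes on the CD8 side, of which the last 3 were named after their values were seen, were Itgae (CD103, log2 2.52 ± 0.065), which CD8 cells also carry, the ectonucleotidases Nt5e (log2 0.75 ± 0.067) and Entpd1 (log2 0.46 ± 0.14), and Tigit (log2 0.50 ± 0.12).

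Costimulatory genes leaned the same way, with 12 of 18 lower in CD8 cells, 3 higher (0 without the block) and 3 not passing (median -0.55). Tnfrsf25 (DR3) was 135, 123 and 109.6 CPM in CD4 and 33.9, 30.7 and 21.8 CPM in CD8 cells (log2 -2.11 ± 0.071). Cd81, a tetraspanin, was 24.4, 25.7 and 32.8 CPM and 2.85, 4.17 and 3.79 CPM (log2 -2.94 ± 0.13), and Cd5, a negative regulator of T cell receptor signals, 424, 428 and 378 CPM and 199, 186 and 187 CPM (log2 -1.10 ± 0.047).

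Myeloid markers moved with the CD4 side. Of 14 measured myeloid markers, 12 were lower in CKO CD8 libraries, 1 was higher and 1 did not pass. Their summed level was 164 to 347 CPM in CKO CD4 and 109 to 168 CPM in CKO CD8 libraries, against 92.2 to 137 CPM and 38.5 to 60.4 CPM in WT. The macrophage receptor Csf1r was 60.5, 31.8 and 81 CPM in CKO CD4 and 9.56, 5.41 and 12.2 CPM in CKO CD8 libraries (log2 -2.66 ± 0.085), and the complement genes C1qa (log2 -2.79 ± 0.16), C1qb (log2 -2.86 ± 0.15) and C1qc (log2 -2.55 ± 0.15) followed, with mouse 68 lowest among the CD4 libraries for all 4. The exception was Itgax (CD11c), which activated CD8 cells also carry, at 4.48, 8.6 and 7.71 CPM and 81, 55.8 and 84.9 CPM (log2 3.41 ± 0.17). Their part in the CD4-side results was not tested.

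B cell and red cell markers followed no single direction. B markers summed to 76.1 to 102 CPM in CD4 and 85.8 to 94.2 CPM in CD8 libraries, most of it from Cd74 in CD4 libraries and from Cd22, Cd74 and Cd79b in CD8 libraries. Of 12 measured, 5 were higher in CD8 libraries (2 without the block, and 2 without mouse 68, where Pax5 and Ms4a1 lost their calls), 1 lower and 6 did not pass. Cd22, an inhibitory lectin of B cells, was 9.67, 5.67 and 6.66 CPM and 35, 27.9 and 38.3 CPM (log2 2.21 ± 0.12) and Cd79b 4.19, 3.72 and 4.04 CPM and 16.2, 12.7 and 10.7 CPM (log2 1.71 ± 0.15), while Pax5 (1.11, 0.911 and 2.26 CPM and 2.55, 3.47 and 3.35 CPM, log2 1.19 ± 0.31) and Ms4a1 (log2 1.09 ± 0.30) stayed under 4 CPM in the CKO libraries. Cd74, the invariant chain of MHC class II, was on the CD4 side (log2 -1.27 ± 0.085). Ighm is listed at 0 in all 12 libraries, as are the T cell receptor constant genes Trbc1 and Trbc2, so those genes carry no information here. The MHC class II genes H2-Aa, H2-Ab1 and H2-Eb1 of the B list were at most 1.01 CPM in the CKO libraries and below the filter, while Cd74 was 56.4, 54.6 and 75.1 CPM in CD4 and 24.1, 26.3 and 26.5 CPM in CD8 libraries; the B marker sum rests on the other members. Of 3 measured red cell and platelet genes, Hba-a1 was lower in CD8 libraries (log2 -1.95 ± 0.54, adjusted p = 0.0119, at most 2.06 CPM), and Epor (log2 -0.94 ± 0.70) and Itga2b (log2 -0.14 ± 0.094) did not pass.

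Genes of naive and memory state went both ways, with more of them on the CD4 side. Of 20 measured, 12 were lower in CKO CD8 cells, 5 higher and 3 did not pass (median -0.18; 6 lower and 2 higher without the block). Ly6c2 (above, log2 4.75 ± 0.12) had the smallest p of the list and was on the CD8 side. Igfbp4, a naive-cell transcript, was 801, 967 and 898 CPM in CD4 and 245, 287 and 226 CPM in CD8 cells (log2 -1.82 ± 0.054). Il6ra was lower as well (log2 -1.20 ± 0.048). Foxo1 (log2 -0.50 ± 0.043) and Bach2 (log2 -0.48 ± 0.043), factors that keep cells quiescent, were lower in CD8 cells by less than 2-fold. Tcf7 and Lef1, factors of naive and stem-like memory cells chosen after their values were seen, differed by log2 -0.39 ± 0.044 and log2 -0.32 ± 0.042.

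Cytokine receptors split between the populations, with 12 of 25 higher in CKO CD8 cells (7 without the block), 10 lower and 3 not passing. Il18rap, a chain of the IL-18 receptor, was 62.9, 33.9 and 42.3 CPM in CD4 and 191, 157 and 231 CPM in CD8 cells (log2 2.07 ± 0.11), and Il2rb, the IL-2 and IL-15 receptor chain chosen after its values were seen, 349.7, 274 and 288 CPM and 820.5, 928 and 1052 CPM (log2 1.62 ± 0.088). On the CD4 side stood Il2ra (above), Il9r (log2 -4.21 ± 0.16), Il6ra and the TGF-beta coreceptor Tgfbr3 (142, 155 and 156 CPM and 51.3, 45.4 and 33.3 CPM, log2 -1.82 ± 0.10). Il2ra and Il2rb, chains of the high-affinity IL-2 receptor, thus had opposite directions.

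Homing receptors split as well, with 10 of 19 higher, 7 lower and 2 not passing (6 higher and 3 lower without the block). Ccr9, the gut homing receptor, was 13.1, 6.85 and 8.8 CPM in CD4 and 128, 94 and 96.5 CPM in CD8 cells (log2 3.48 ± 0.089), Cx3cr1, a receptor of effector CD8 cells, 7.42, 2.22 and 10.9 CPM and 78, 28.7 and 70.6 CPM (log2 3.17 ± 0.14), and S1pr5, which acts in tissue exit, 2.87, 1.31 and 4.04 CPM and 35.9, 21.8 and 31.4 CPM (log2 3.47 ± 0.16). Mouse 68 was again lowest in both populations for Cx3cr1 and S1pr5. Ccr4 and Ccr6 were on the CD4 side (above).

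Among 22 measured integrins and adhesion genes, 9 were higher, 5 lower and 8 did not pass. Itgae was 21, 18.7 and 16.8 CPM in CD4 and 122, 113 and 90.2 CPM in CD8 cells, and Icam1 differed by log2 1.22 ± 0.057. The integrin beta 3 gene Itgb3 was 299.9, 301 and 259 CPM and 53.8, 58.9 and 67.9 CPM (log2 -2.26 ± 0.081), and Itga6 differed by log2 -1.10 ± 0.051, both on the CD4 side.

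Inhibitory receptors and their regulators gave 8 higher (4 without the block), 6 lower and 3 not passing of 17. Cd160 was 4.08, 3.37 and 4.76 CPM in CD4 and 39.7, 33.5 and 35.3 CPM in CD8 cells. Btla (log2 -1.06 ± 0.055) and Cd200r1 (18.4, 15.2 and 14.8 CPM and 2.74, 2.65 and 2.48 CPM, log2 -2.62 ± 0.15) were on the CD4 side. The early-response nuclear receptors differed in direction, Nr4a1 at log2 -0.88 ± 0.05 and Nr4a2 at log2 0.71 ± 0.052, and both were lowest in mouse 65 in either population. Nr4a2 lost its call without the mouse as a block (0.71, adjusted p = 0.109).

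T cell receptor signalling genes went both ways: 8 of 29 were higher (3 without the block), 10 lower and 11 did not pass (median -0.05). Cd5 (above, log2 -1.10 ± 0.047) had the smallest p of the list and was on the CD4 side. The phosphatase Ptpn22 was 116, 105 and 110.2 CPM in CD4 and 206, 214 and 242 CPM in CD8 cells (log2 0.996 ± 0.058). Cd6 (log2 -0.44 ± 0.043), the diacylglycerol kinase Dgka (log2 -0.51 ± 0.041) and the Ras activator Rasgrp1 (log2 -0.47 ± 0.04) were lower in CD8 cells, as were Cd247 (log2 -0.28 ± 0.043) and Lat (log2 -0.21 ± 0.05) of the receptor complex and its scaffold. Cd3e was higher (log2 0.20 ± 0.045) and Cd3d did not pass (log2 0.13 ± 0.053, adjusted p = 0.0695) except without mouse 72 (adjusted p = 0.0058) and with no filter on low counts (adjusted p = 0.0246).

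Innate-like and gamma delta T cell genes also split, 4 of 10 higher and 5 lower with 1 not passing. Plac8 was 3.44, 6.02 and 8.8 CPM in CD4 and 85.1, 93.1 and 108 CPM in CD8 cells (log2 4.01 ± 0.13), the scavenger receptor Cd163l1 7.06, 9.31 and 6.18 CPM and 74.2, 80.3 and 56.7 CPM (log2 3.23 ± 0.086), and the gamma chain constant gene Tcrg-C2 5.73, 4.36 and 3.96 CPM and 23.8, 17.1 and 19.6 CPM (log2 2.10 ± 0.13). Il17a, which encodes the cytokine IL-17A, was at most 1.86 CPM and had 1 count over the 3 CD8 libraries.

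The methyltransferase and methylosome genes differed by less than 2-fold. Of 14 measured, 6 were higher in CKO CD8 cells, none was lower and 8 did not pass (median 0.15), a share of 42.9% called against 35.5% over all genes. After Prmt5 came the adaptor Riok1 (log2 0.31 ± 0.062), the Sm protein Snrpb (log2 0.17 ± 0.046), Prmt3 (log2 0.24 ± 0.068) and Prmt6 (log2 0.28 ± 0.083), each smaller than the difference of Prmt5. Without the mouse as a block Prmt5 alone of these 5 kept its call, and Prmt3 also lost it without mouse 72 and Prmt6 without mouse 65, without mouse 68 and under DESeq2's Wald test (adjusted p = 0.0577).

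Cell cycle genes were CD8-side in CKO mice. Of 28 measured, 23 were higher, none was lower and 5 did not pass, with a median of 0.57. The replication helicase genes Mcm6 (99.99, 86.9 and 97.4 CPM in CD4, 154, 145 and 158 CPM in CD8 cells, log2 0.68 ± 0.05), Mcm5 (log2 0.58 ± 0.06) and Mcm3 (log2 0.53 ± 0.063) and the mitotic kinesin Kif23 (log2 0.76 ± 0.12) did not overlap between populations. Top2a, the topoisomerase of dividing cells, was 126, 64.7 and 72.5 CPM and 145, 112 and 154 CPM (log2 0.68 ± 0.11), higher in CD8 cells in each mouse, while the CD4 library of mouse 65 was above a CD8 library of another mouse. The count rested on the pairing: without the block 5 members were higher, with DESeq2 15, and without mouse 72 13.

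Interferon response genes had 7 higher, 12 lower and 11 not passing of 30 (median -0.16), against 17% higher and 18.5% lower over all genes. Without the block 3 were higher and 3 lower, and without mouse 68 4 were higher. Ifi27l2a (log2 -0.74 ± 0.053), Oas2 (log2 -0.76 ± 0.055) and Ifit2 (log2 -0.70 ± 0.064) were lower in CD8 cells, and the GTPases Mx1 (15.4, 9.59 and 19.7 CPM and 30.2, 27.3 and 50.5 CPM, log2 1.27 ± 0.11) and Gbp3 (log2 0.84 ± 0.077) were higher. Mouse 72 was highest in both populations for these 5 genes. Apoptosis genes had 9 higher, 4 lower and 9 not passing of 22. The death ligand Fasl was 19, 19.4 and 15.6 CPM in CD4 and 43.3, 46.1 and 59.5 CPM in CD8 cells (log2 1.45 ± 0.12), and the BH3-only genes Pmaip1 (log2 0.73 ± 0.077) and Bcl2l11 (log2 0.46 ± 0.055) were also higher, while the inhibitors Birc3 (log2 -0.52 ± 0.045) and Cflar (log2 -0.43 ± 0.044) were lower.

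The WT mice show where the CKO contrast differs. The 2 contrasts share no library. In WT spleen 2416 genes (17.1%) were higher in CD8 cells and 2561 (18.1%) lower, of 14131 tested. Over the 13756 genes tested in both, 1474 were higher in both, which is 62.4% of the CKO and 61.4% of the WT calls, and 1693 were lower in both (66.4% and 68.5%). The difference between the contrasts, tested over all 12 libraries, passed for 1083 of 14958 genes (7.24%), 672 (4.49%) with a more positive CD8 over CD4 difference in CKO and 411 (2.75%) with a more negative one. The 672 became 443 without CKO mouse 72 and 446 without CKO mouse 68. The 411 became 159, 194 and 234 without CKO mouse 72, CKO mouse 68 and WT mouse 70.

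Effector genes were among those with a more positive difference in CKO mice. The test passed with a more positive difference for 11 of 19 granule genes, 6 of 10 chemokine and cytokine genes, 13 of 17 effector factors and 9 of 28 killer receptors, with 0, 0, 0 and 1 more negative. Over all genes the shares were 4.49% and 2.75%. Stx11, Rab27a, Maf and Rora, among the more positive, were lower in CKO CD8 cells, so for them the CD4-side difference was smaller than in WT. Lamp2, Il10, Klrb1f and Irf8, also among them, were not called in CKO. Gzmk was 5.002, 1.9 and 3.16 CPM in WT CD4 and 5.2, 9.99 and 4.72 CPM in WT CD8 cells, against the rise in CKO given above (2.83 ± 0.42, adjusted p = 3.80e-04). Tbx21 was 18.8, 20.9 and 19.3 CPM and 25.4, 33.2 and 26.3 CPM in WT (1.90 ± 0.19, adjusted p = 1.38e-05). Eomes was 19.7, 13.2 and 16.1 CPM and 89, 88.4 and 87.4 CPM in WT, and its difference between contrasts did not pass (0.12 ± 0.13, adjusted p = 0.71). Gzmb was 5.69, 3.22 and 3.16 CPM and 17.6, 20.9 and 6.38 CPM in WT (1.35 ± 0.30, adjusted p = 0.00996), a call lost without the block (adjusted p = 0.391), with DESeq2 (0.0822) and without WT mouse 67 (0.0519). Gzma (adjusted p = 0.664), Ccl5 (0.129), Ccl4 (0.0988), Klrc1 (0.147) and Zeb2 (0.287) also lost this call without the block. With DESeq2, Gzma (0.199) and Klrc1 (0.122) lost it too. Gzmk, Gzmm, Ifng, Klrk1, Cd160, Tbx21 and Maf kept theirs in both settings. List counts for the difference were made in the main setting only.

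**Figure D4:**
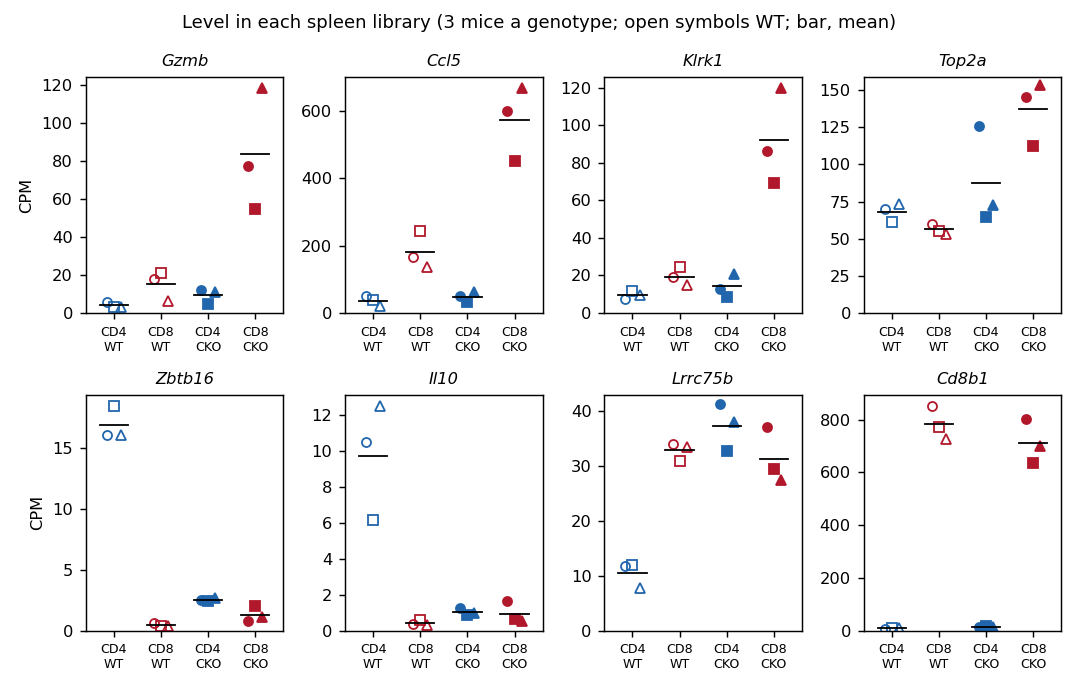
Level in CPM (vertical axes, each from 0) of 8 genes in the 12 spleen libraries, WT as open and CKO as filled symbols, 1 symbol per mouse, bar at the mean. Gzmb, Ccl5 and Klrk1 are highest in the CKO CD8 libraries, Zbtb16 and Il10 in the WT CD4 libraries, and Lrrc75b is lowest in WT CD4 (11.8, 11.9 and 7.78 CPM).

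The CD4-side gap was narrower in CKO mice for most regulatory genes. The test was positive for 17 of 21 regulatory genes and negative for 1, against 4.49% and 2.75% over all genes. Of the positive genes, Nt5e (log2 -0.37 in WT, 0.75 in CKO), Entpd1 (-1.64 and 0.46) and Tigit (-1.08 and 0.50) changed direction. Foxp3 was 125, 113 and 112 CPM in WT CD4 and 2.04, 1.21 and 3.37 CPM in WT CD8 cells (1.34 ± 0.25, adjusted p = 0.0034), so its CD4 levels overlapped between genotypes while its CD8 level was higher in CKO. Lrrc32 (1.80 ± 0.29) and Il2ra (1.26 ± 0.13) had the same sign. Il10, an inhibitory cytokine, was 10.5, 6.18 and 12.5 CPM in WT CD4 and 0.377, 0.622 and 0.309 CPM in WT CD8 cells and 1.25, 0.872 and 1.01 CPM and 1.65, 0.662 and 0.519 CPM in CKO (4.20 ± 0.52, adjusted p = 8.33e-05), and did not differ between the CKO populations beyond the test's threshold (log2 -0.26 ± 0.42, adjusted p = 0.684). Izumo1r (0.999 ± 0.14) and Maf (1.57 ± 0.11) followed, each with a lower CD4 level in CKO (63.4, 43 and 49.8 CPM for Maf, against 107, 82 and 129.96 CPM in WT).

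The innate-like factor Zbtb16 (PLZF) had a large difference of this kind. Zbtb16 was 16.1, 18.5 and 16 CPM in WT CD4 cells and 0.641, 0.428 and 0.426 CPM in WT CD8 cells, but 2.51, 2.42 and 2.71 CPM and 0.787, 2.06 and 1.12 CPM in CKO (4.07 ± 0.39, adjusted p = 8.74e-06). Its remaining difference within CKO (log2 -1.02 ± 0.33) lost its call without the block, with DESeq2, without mouse 65 and without mouse 72. Nrbp2 (4.19 ± 0.49) and Fam160a1 (3.99 ± 1.16) also had a lower CD4 level in CKO, and the kinase gene Pak6 (2.25, 2.35 and 1.39 CPM in WT CD4, 2.45, 4.43 and 2.28 CPM in WT CD8 cells; 0.43, 0.475 and 0 CPM and 5.4, 5.69 and 4.83 CPM in CKO; 3.57 ± 0.56) had a lower CD4 and a higher CD8 level.

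Naive-state genes went the other way: 12 of 20 had a more negative difference in CKO and none a more positive one, against 2.75% and 4.49% over all genes. Igfbp4 was 462, 521 and 509.7 CPM in WT CD4 and 224, 254 and 257 CPM in WT CD8 cells (-0.80 ± 0.077, adjusted p = 9.28e-06), with the CD4 level higher in CKO. Among called, named genes at 5 CPM or more in at least 1 of the 4 groups, Snrnp40 (-2.82 ± 0.48), a U5 snRNP protein gene, Lrrc75b (-1.92 ± 0.16), Tnfrsf21 (-1.91 ± 0.46), the prohormone convertase Pcsk1 (-1.81 ± 0.30) and Ccr6 (-1.72 ± 0.50) had the most negative differences. Lrrc75b was 11.8, 11.9 and 7.78 CPM in WT CD4 and 34, 30.9 and 33.4 CPM in WT CD8 cells, against 41.2, 32.7 and 38 CPM and 36.9, 29.4 and 27.3 CPM in CKO, so the libraries of both populations overlapped in CKO and not in WT. Ccr6 lost its call in most other settings (adjusted p up to 0.326).

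Calls in opposite directions were few: 91 genes were higher in CD8 cells in CKO and lower in WT, and 19 were lower in CKO and higher in WT. Each of these passed the test of the difference, which adds little, since they were picked for opposite calls in the same libraries. Of genes in the lists, 30 were in the first set and 1, Il7r (named after its values were seen), in the second. The first set held 8 cell cycle genes, among them Mki67 (chosen after its values were seen; -0.50 ± 0.063 in WT, log2 0.54 ± 0.12 in CKO) and Top2a (-0.29 ± 0.07 in WT). It also held Ifng (-0.49 ± 0.10 in WT), Fasl (-0.67 ± 0.11 in WT), Klrb1c (-1.41 ± 0.22 in WT) and Cd22 (-0.46 ± 0.14 in WT). The cell cycle list as a whole had 4 members higher and 9 lower in WT CD8 cells, with a median of -0.23. The test of the difference passed for 13 of 28, all positive, against 4.49% positive over all genes.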

How the data were processed

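Flow-sorted spleen CD4 and CD8 T cells gave total RNA, poly(A) selection and directional libraries, per the labels' protocols. The values are raw read counts per gene symbol (46095 rows), deposited by the authors. Per the submitters' processing notes, HISAT2 and HTSeq were used with the build GRCm38; no version, annotation or strand setting is stated there. Whether reads of a gene and of its antisense partner were counted apart is therefore not known.

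Groups came from sample titles and pairs from the animal number in titles and column names; each number was taken as a mouse that gave both populations. Deviations from group means of 2 libraries of 1 mouse correlated at 0.308 to 0.410 in CKO and 0.120 to 0.212 in WT over 14958 genes, and those of different mice at -0.284 to 0.0178. Each genotype was fitted with edgeR 4.0.16 in R 4.3.3 (filterByExpr with a minimum count of 10, TMM scaling, quasi-likelihood test, mouse as a block, Benjamini-Hochberg adjustment). The difference between genotypes was a contrast over 12 libraries. An SE is the log2 difference over the square root of F. Printed CPM use TMM factors over the 12 libraries. Scripts were tested on simulated data. P-values of a contrast within a genotype measure the CD8 over CD4 difference against its spread between 3 mice. Those of the difference between genotypes rest on 3 mice of each genotype. Depth was 24729146 to 27192847 counts a library.

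Named genes are Cd4, Cd8a, Gzmb and Prmt5; the 10 largest differences in each direction among called genes at 5 CPM or more with no overlap and 1 direction in all mice, unnamed gene models left out; up to 5 members of smallest p in each of 24 lists; and the 5 largest called differences between genotypes in each direction at 5 CPM or more in 1 of the 4 groups, unnamed models left out. Members, lists and rule were chosen with earlier results of these data known. Alternatives were no block, DESeq2 1.42.0 size factors and Wald test, limma 3.58.1 voom, no or a stricter filter (5 CPM in 3 libraries), 1 fit over 12 libraries, and leaving out each mouse. Thymus tables were not used, and some genes that the rule would name are not reported here. Positions are from GENCODE M21 on GRCm38.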

Additional observations from a re-analysis of the deposited data

Results flagged for a closer look

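For the results below, the CD8 over CD4 difference in CKO mice differed from that in WT mice by the test of the difference itself, edgeR's quasi-likelihood test over 12 libraries with Benjamini-Hochberg adjustment; each value is the CKO minus the WT log2 difference, ± SE. Beside Gzmb (1.35 ± 0.30), the 5 largest positive values among called, named genes at 5 CPM or more in at least 1 of the 4 groups were Il10 (4.20 ± 0.52), Nrbp2 (4.19 ± 0.49), Zbtb16 (4.07 ± 0.39), Fam160a1 (3.99 ± 1.16) and Pak6 (3.57 ± 0.56). Within the same limit, the 5 most negative were Snrnp40 (-2.82 ± 0.48), Lrrc75b (-1.92 ± 0.16), Tnfrsf21 (-1.91 ± 0.46), Pcsk1 (-1.81 ± 0.30) and Ccr6 (-1.72 ± 0.50). Fam160a1 had 7 counts over the 3 CKO CD8 libraries, and its call was lost without any 1 WT mouse and without CKO mouse 68 (adjusted p up to 0.728). Tnfrsf21 lost its call without WT mouse 70 and without CKO mouse 72 (adjusted p up to 0.134), and Ccr6 lost it without any 1 mouse of either genotype.

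For each list, the named member whose difference between genotypes had the smallest p is given. For the granule, effector cytokine, killer receptor and effector factor lists these were Gzmk (2.83 ± 0.42), Ifng (2.21 ± 0.23), Klrk1 (1.75 ± 0.16) and Maf (1.57 ± 0.11). For the apoptosis, inhibitory receptor, NK and homing lists they were Fasl (2.12 ± 0.19), Cd160 (1.67 ± 0.17), Klrb1c (2.64 ± 0.28) and Cx3cr1 (1.18 ± 0.23). Il2ra (1.26 ± 0.13) was that member of the regulatory and cytokine receptor lists. The helper, costimulatory and naive lists gave Izumo1r (0.999 ± 0.14), Tnfrsf4 (0.69 ± 0.16) and Igfbp4 (-0.80 ± 0.077). The receptor signalling, integrin and coreceptor lists gave Ptpn22 (0.40 ± 0.079), Itgae (-1.10 ± 0.12) and Cd8b1 (-0.96 ± 0.12). Tnfrsf4 lost its call without WT mouse 71 and without CKO mouse 65 (adjusted p up to 0.0579), and without the block (adjusted p = 0.0935). Among the results flagged here, the adjusted p without the block was also above 0.05 for Gzmb (0.391), Ccr6 (0.326), Fam160a1 (0.0926), Tnfrsf21 (0.0809), Cx3cr1 (0.65), Ptpn22 (0.0648) and Top2a (0.0916). Other named genes that lost this call are counted below. Itgae and Cd8b1 were higher in CKO than in WT CD4 libraries: Cd8b1 was 15.3, 16.7 and 15.9 CPM in CKO CD4 and 8.44, 9.55 and 9.1 CPM in WT CD4 cells, and Itgae 21, 18.7 and 16.8 CPM and 7.03, 12 and 8.92 CPM.

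Tcrg-C2 (2.35 ± 0.22) and Cd22 (2.66 ± 0.20) are genes of gamma delta T cells and of B cells. Cd22 was 14.9, 13 and 20.1 CPM in WT CD4 and 10.1, 12.8 and 11.9 CPM in WT CD8 libraries, and Tcrg-C2 3.55, 2.77 and 2.57 CPM and 2.9, 2.1 and 2.51 CPM. Top2a (0.96 ± 0.16) and Gbp3 (0.87 ± 0.12) were the members of the cell cycle and interferon lists. No explanation of these differences was tested.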

How the results depend on the processing

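Without the mouse as a block, the same-animal pairing of libraries was ignored: 1182 genes were higher and 1474 lower in CKO CD8 cells in place of 2419 and 2636, 91 list members were higher in place of 155, and the difference from WT passed for 271 genes with a positive and 112 with a negative sign in place of 672 and 411. All of the 2656 genes called without the block were also called with it. Leaving out 1 mouse at a time gave 1813 to 2231 higher and 2028 to 2304 lower genes in CKO, and 443 to 678 positive and 159 to 416 negative differences from WT. Counts over all genes stayed within 1.5 times under DESeq2's size factors, DESeq2's Wald test, voom, no filter, the stricter filter and, where it applies, 1 fit over 12 libraries.

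The Il10 difference in CKO, not called, ranged from -0.67 to 0.043 with 1 mouse left out, changing sign without CKO mouse 72 (adjusted p = 0.961). The Cd4 difference between genotypes, -0.97 ± 0.54 (adjusted p = 0.369), ranged from -1.43 to 0.53 with 1 mouse left out, the latter (adjusted p = 0.0454) without WT mouse 71, whose CD8 library held Cd4 at 13.7 CPM against 1.85 and 1.94 CPM in the other WT CD8 libraries. The cause was not tested. Of the 128 named genes, 16 lost their call in CKO without the block (Nr4a2, Riok1, Snrpb, Prmt3, Prmt6, Top2a, Oas2, Bcl2l11, Cd3e, Lat, Pax5, Ms4a1, Hba-a1, Zbtb16, Fam160a1 and Lrrc75b) and 4 under DESeq2's Wald test (Prmt6, Hba-a1, Zbtb16 and Lrrc75b). For the difference between genotypes, 57 named genes were followed. Of these, 22 lost their call without the block and 7 under DESeq2's Wald test. Gzma, Ccl5, Ccl4, Klrc1, Zeb2, Il18rap, Mx1, Pmaip1, Icam1 and Zbtb7b were among those lost without the block. A gene under 0.404 CPM had fewer than 10 counts in the shallowest CKO library, which limits the precision of differences of genes near 0.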

Other observations

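The 22 protein-coding genes from Clic1 to Atp6v1g2 on chromosome 17 and the constant genes Ighm, Trbc1 and Trbc2 are listed at 0 in all 12 spleen libraries, and Trac was 1.04, 0.753 and 1.17 CPM in CKO CD4 and 1.2, 1.05 and 0.958 CPM in CKO CD8 libraries while Cd3e was 439, 433 and 435 CPM and 539, 495 and 469.6 CPM. Levels of these genes, Cd3e apart, are therefore not read here as levels in the cells.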
